A study of Rattus norvegicus with 210 samples.

Results

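The comparison concerns 10 of the 210 libraries of the series, 5 labelled D12 and 5 labelled control, all from the mediobasal hypothalamus (MBH) at postnatal day (PND) 90. They were chosen by the endings of their column names in the table of MBH counts. The rats were female Sprague-Dawley offspring of dams that were gavaged with corn oil (control) or with 12 µg/kg bw/day of diethylstilbestrol (DES), a synthetic estrogen that activates the estrogen receptors. Dosing ran from gestation day 7 and ended on PND 22, so that the rats labelled PND90 had grown up without further exposure. Groups D3 and D6 received 3 and 6 µg/kg bw/day on the same schedule, and the preoptic area (POA) of the same rat numbers was sequenced as well. Groups labelled PND22 and PND42 are used beside these. So are groups K3, K6 and K12, whose dams received 3, 6 and 12 mg/kg bw/day of ketoconazole, a fungicide that inhibits steroid synthesis, on that schedule. The sources used here give neither the litter nor the dam of a rat, so that p-values measure the spread between these libraries.

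The MBH holds the arcuate nucleus, where kisspeptin and neurokinin B neurons drive the pulses of GnRH that govern puberty and the estrous cycle, and where neurons expressing Pomc or Agrp regulate food intake. Its glia and vessels mature after weaning: precursors of oligodendrocytes become fewer, myelin accumulates, and collagens of the meninges and of vessel walls are made mainly in the young brain. Gpr17 encodes a receptor of oligodendrocytes that have left the precursor state but do not yet make myelin, and Npw encodes neuropeptide W.

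The 5 libraries labelled D12 did not form 1 profile. Gpr17 was at 95.3, 109, 26.6, 20.9 and 21.1 CPM (counts of a gene scaled by the total of the library) in D12 r1, r2, r3, r4 and r5, against 136, 115, 135, 106 and 122 CPM in control r1 to r5. The lower level of r3, r4 and r5 had no counterpart in control, whereas r2 lay within the control range and r1 below it. Npw was at 1.64, 1.75, 0.0631, 0.260 and 0.341 CPM in D12 r1 to r5, and at 2.99, 4.98, 2.70, 2.25 and 2.79 CPM in control. The groups did not overlap for Npw, with r1 and r2 again nearest to control. The value of r3 lay below 0.189 CPM, the level of 3 counts in that library.

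**Figure D1:**
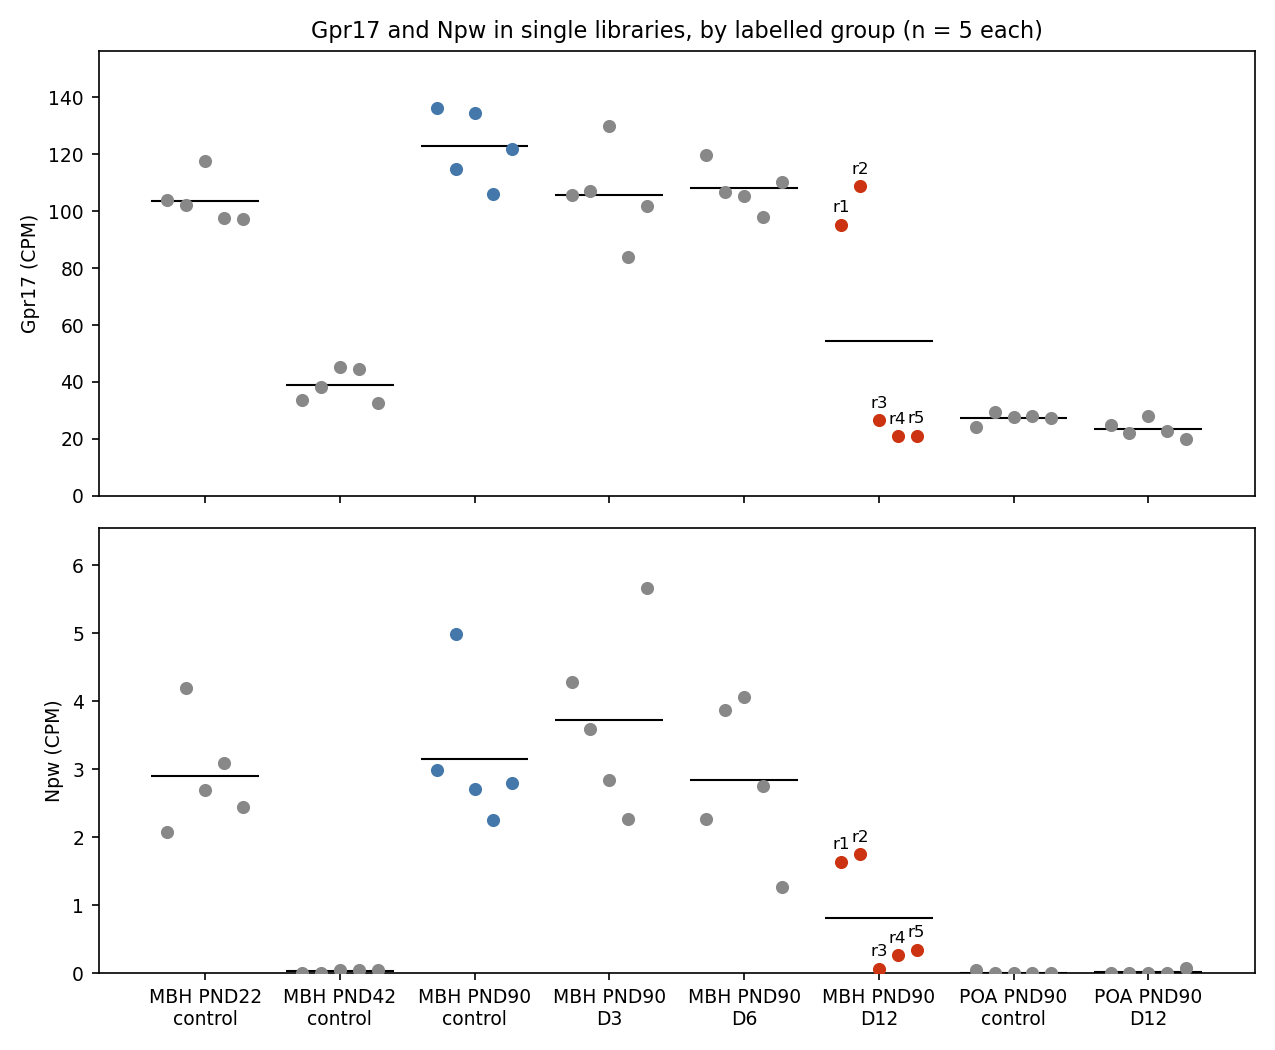
CPM of Gpr17 (top) and Npw (bottom) in every library of 8 labelled groups, with horizontal bars at the mean of 5 libraries. D12 r1 and r2 of the MBH at PND90 had 95.3 and 109 CPM of Gpr17, near the control, D3 and D6 libraries, and r3, r4 and r5 had 20.9 to 26.6 CPM, the level of the POA at PND90.

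The split lay along an age profile, and it set the labels of several libraries against their values. Between control POA libraries labelled PND22 and PND90, 3922 of 14351 genes were called, and the 100 genes with the largest fold change each way were averaged in every library as log2(CPM + 0.5). The mean of the older set minus that of the younger set was -0.85 in D12 r1 and -0.78 in r2, but 1.47, 1.80 and 1.68 in r3, r4 and r5. It lay between -1.13 and -0.71 in the MBH control libraries labelled PND90 and between -1.01 and -0.78 in those labelled PND22, whereas it was 0.24 to 0.79 in MBH control at PND42 and 1.37 to 1.75 in POA control at PND90. Hence the control, D3 and D6 libraries labelled PND90 in the MBH and D12 r1 and r2 scored near control at PND22, and D12 r3, r4 and r5 near POA control at PND90. Scores as high as those of r3, r4 and r5 were not limited to the label PND90: MBH libraries labelled D12 at PND42 lay at 1.26 to 1.88, those labelled D3 and D6 at PND42 at 1.25 to 1.75 and 1.31 to 1.69, and those of rats exposed to ketoconazole and labelled PND90 at 1.05 to 2.03. In the MBH group K12 (ketoconazole) labelled PND42, 1 library lay at 1.75 and 4 lay between -1.13 and -0.63, so that another group of the series was split as well. The POA libraries of the same 5 rat numbers labelled D12 at PND90 did not split, with values of 1.22 to 1.63. All groups below are therefore groups of libraries so labelled, and the age profile and the DES label cannot be told apart in r3, r4 and r5 against control.

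**Figure D2:**
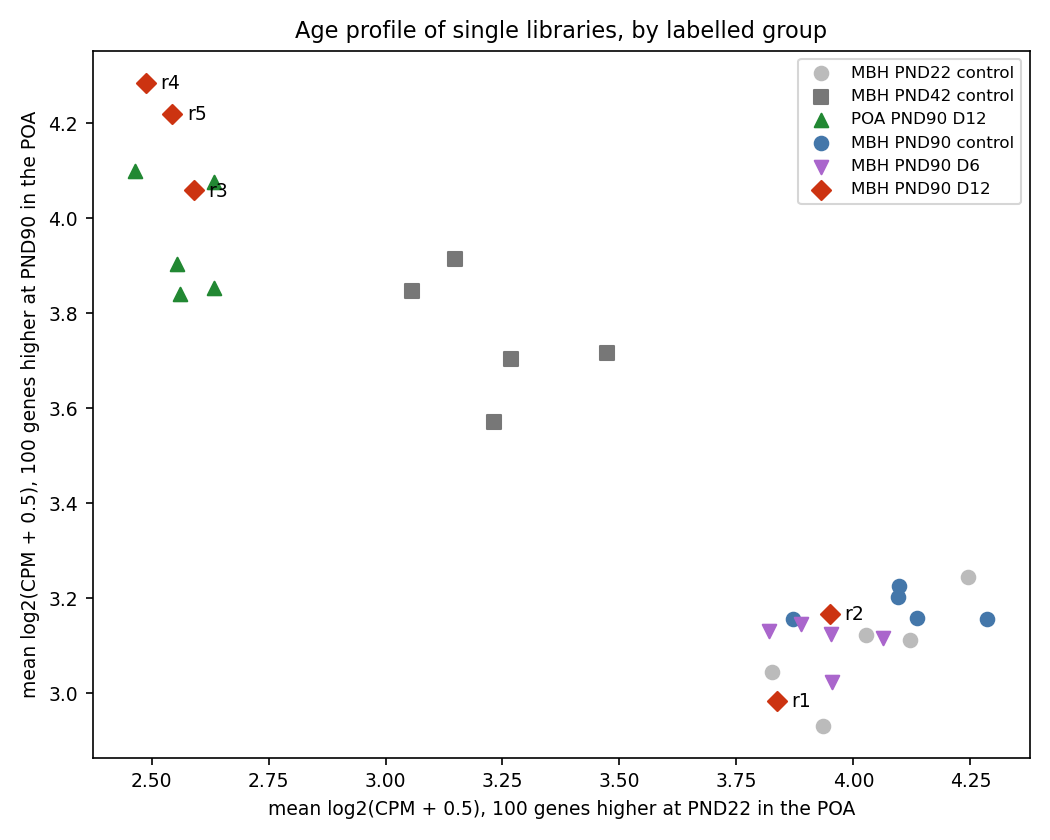
Mean log2(CPM + 0.5) of 100 genes higher at PND22 (x axis) and of 100 genes higher at PND90 (y axis) in control POA, for single libraries of 6 labelled groups. D12 r1 and r2 lie with MBH control and D6 at PND90 and MBH control at PND22, and D12 r3, r4 and r5 lie with the POA libraries labelled D12 at PND90.

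The paper placed the rear cut of the dissection behind the mammillary bodies, so that these lay within the dissected tissue. The summed level of 6 transcripts of mammillary neurons was 39.0 to 58.0 CPM in control. It was 40.2 to 52.6 CPM in D12, with r1 and r2 among the others. Other regional lists did set libraries apart. Striatal markers summed to 172 and 200 CPM in r1 and r2, 245 to 252 CPM in r3, r4 and r5, and 196 to 226 CPM in control, and pituitary markers to 19.8 and 26.4 CPM, 65.2 to 108 CPM, and 13.4 to 36.3 CPM. Markers of cortex and hippocampus summed to 92.5 to 106 CPM in all D12 libraries and to 108 to 124 CPM in control. The most abundant of them was Nrgn, the only member called. Of the 5 members tested, 4 had a negative log2 fold change and 1 a positive one (1.32). The part of the dissection in the results was not tested. Across 10 libraries, 14683787 to 22416287 reads were counted on genes, with 17697090 ± 3325058 (SD, n = 5) in D12 and 19081136 ± 2104015 in control (exact permutation test, two-sided, p = 0.452; smallest possible p = 0.00794). The totals of r3, r4 and r5 were below those of all other libraries. Pearson's r across genes was 0.992 between D12 r1 and r2, 0.985 to 0.990 among r3, r4 and r5, and 0.970 to 0.978 between these 2 sets, beside 0.988 to 0.992 within control. Genes are not independent replicates, so that these values only describe the libraries.

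In D12 against control, 890 of 14618 genes (6.09%) were called by edgeR's quasi-likelihood test at an adjusted p-value under 0.05, and 3823 (26.2%) had an unadjusted p-value under 0.05. Of the called genes, 260 were higher (1.78% of the genes tested) and 630 were lower (4.31%) in D12. The median change of the called genes was 0.36 on the log2 scale among the higher and -0.51 among the lower genes, beside a median of 0.0038 over all genes tested. For 178 of the 260 and 554 of the 630, no D12 library overlapped control, and over all genes tested 2.78% lay above and 5.47% below control without overlap. With D12 r1 and r2 left out 4034 genes were called, 876 of the 890 among them, and with r3, r4 and r5 left out 291 were called, of which 157 were among the 890. The 291 comprised 11 higher and 280 lower genes. These sets of libraries were chosen after their values were seen, and the fits hold unlike numbers of D12 libraries. The counts with sets left out are therefore a description and do not compare the sets.

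Single libraries moved by unlike amounts over the called genes. The median deviation from the control mean over the 260 higher genes was 0.22, 0.19, 0.40, 0.47 and 0.42 on the log2 scale in r1 to r5. Over the 630 lower genes it was -0.48, -0.36, -0.52, -0.63 and -0.58. For both sets r2 moved least and r4 most. Since these genes were called on the same libraries, by a test that favours a small spread within D12, the values are a description. Of the 630 lower genes, 45.7% were also higher at PND22 than at PND90 in control POA, a class that held 11.6% of all genes tested, and none was higher at PND90. Among the 260 higher genes, 62.3% were higher at PND90 in control POA, beside 15.1% of all genes tested, and none was higher at PND22. The part of age in the calls was not tested further.

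The 3 genes with the smallest adjusted p-values were lower in all 5 D12 libraries, to a like extent for Gramd1a and Nbeal2 and less evenly for Dot1l. A choice by the smallest p-value favours a small spread within groups, so that this evenness is a description. Gramd1a, which encodes a protein that carries cholesterol from the plasma membrane to the endoplasmic reticulum, was at 66.8, 75.9, 71.2, 70.8 and 72.7 CPM in D12 and at 104, 107, 101, 109 and 102 CPM in control (log2 fold change -0.53 ± 0.052 (SE), adjusted p = 0.00174, edgeR). Dot1l, the methyltransferase of histone H3 lysine within the nucleosome core, was at 21.7, 25.0, 20.3, 15.8 and 18.9 CPM against 41.8, 40.7, 38.7, 46.7 and 39.9 CPM (-1.01 ± 0.103, adjusted p = 0.00174). Nbeal2, needed for the granules of platelets, was at 12.1, 17.2, 14.8, 14.1 and 15.1 CPM against 25.7, 31.6, 26.7, 29.2 and 26.5 CPM (-0.91 ± 0.097, adjusted p = 0.00174). None of the 3 had an overlap of the groups, and each kept its call whichever of the 10 libraries was removed. Their log2 fold changes were -0.53, -0.81 and -0.91 with r3, r4 and r5 left out, and -0.53, -1.17 and -0.91 with r1 and r2 left out. In all, 210 genes, 16 higher and 194 lower, kept their call under each such removal.

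**Figure D3:**
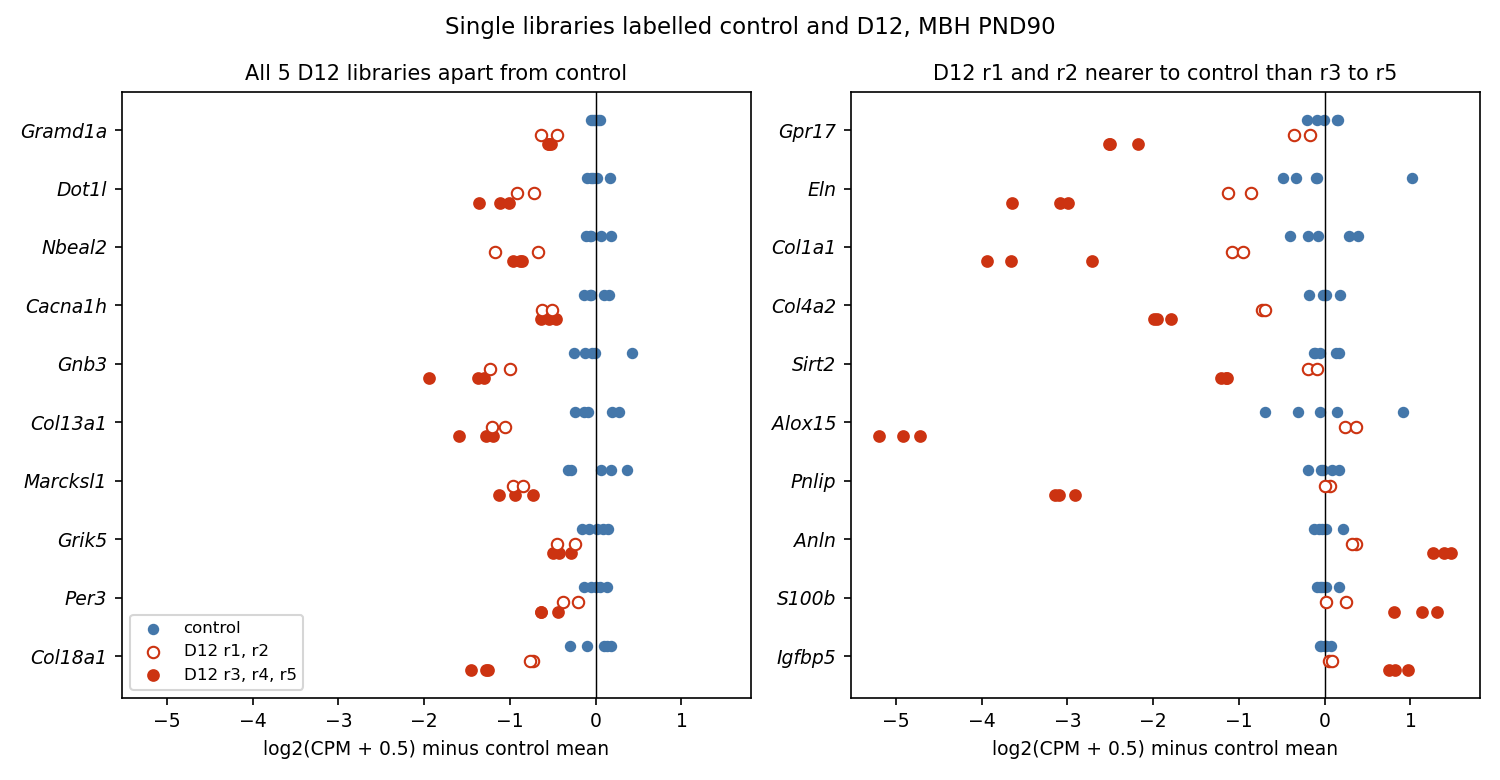
log2(CPM + 0.5) minus the control mean (x axis) in the 5 control libraries, in D12 r1 and r2 (open points) and in D12 r3, r4 and r5 (filled points), for 10 genes per panel chosen after their values were seen. On the left, all D12 libraries lie apart from control. There r1 and r2 lie beside r3, r4 and r5, as for Gramd1a and Cacna1h, or somewhat nearer to control, as for Col18a1. On the right D12 r1 and r2 lie nearer to control, as for Gpr17, Alox15 and S100b.

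The largest falls were in structural genes of the extracellular matrix. Eln, which encodes elastin, was at 25.8, 31.1, 6.69, 6.23 and 4.09 CPM in D12 and at 53.3, 115, 53.0, 45.0 and 40.5 CPM in control (-2.01 ± 0.50, adjusted p = 0.0365). Col1a1, a chain of fibrillar collagen, was at 30.9, 33.9, 3.85, 9.61 and 4.77 CPM against 49.6, 57.5, 80.5, 86.7 and 62.6 CPM (-1.97 ± 0.488, adjusted p = 0.0359). For both genes all D12 libraries were below control, and r1 and r2 lay between control and r3, r4 and r5. Among the 8 falls of largest size without overlap were 3 further collagens with the same order, Col26a1 (-1.93 ± 0.525), Col7a1 (-1.81 ± 0.476) and, with less difference between the libraries, Col2a1 of cartilage (-1.66 ± 0.252).

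Col13a1, a collagen anchored in the plasma membrane, was lower to a like extent in all D12 libraries, at 1.23, 1.41, 1.14, 1.23 and 0.817 CPM against 3.12, 4.32, 2.87, 3.25 and 4.05 CPM (-1.56 ± 0.195, adjusted p = 0.00241). Gnb3, a G protein beta subunit, was at 0.957, 1.21, 0.883, 0.390 and 0.817 CPM against 2.81, 2.64, 2.37, 4.08 and 2.90 CPM (-1.75 ± 0.256, adjusted p = 0.00453). Both kept their calls whichever library was removed. Adam8, a metalloproteinase, completed these 8 genes (-1.61 ± 0.375, adjusted p = 0.0305). Eln, Col1a1, Col26a1 and Col7a1 kept their call in 2 such fits only, those without D12 r1 or r2.

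Of 21 listed collagens and matrix genes tested, 11 fell (52.4%, beside 6.09% called of all genes tested), 10 did not pass the test and none rose. The median was -0.75 beside 0.0038 over all genes, and all 21 estimates were negative. The summed level of the list, which the abundant members Sparc and Bcan weigh most, was 4243 and 4426 CPM in r1 and r2, 2975 to 3744 CPM in r3, r4 and r5, and 4136 to 5066 CPM in control, so that r1 and r2 lay within the control range. Col18a1, a collagen of basement membranes, was at 21.3, 20.8, 14.4, 14.6 and 12.7 CPM in D12 and at 28.8, 38.3, 33.1, 40.3 and 39.1 CPM in control (-1.07 ± 0.146, adjusted p = 0.00396). Col4a2, a chain of the main collagen of basement membranes, was at 67.9, 69.3, 32.4, 28.2 and 28.9 CPM against 112, 128, 99.8, 115 and 113 CPM (-1.30 ± 0.243, adjusted p = 0.0127). All 5 D12 libraries were below control for both, with log2 fold changes of -0.75 and -0.70 without r3, r4 and r5 and of -1.35 and -1.91 without r1 and r2. Col5a1, a minor fibrillar collagen, completed the 3 members with the smallest adjusted p-values (-1.56 ± 0.366, adjusted p = 0.0308). Removing single libraries left Col18a1 and Col4a2 called in all 10 fits, and Col5a1 in 3.

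**Figure D4:**
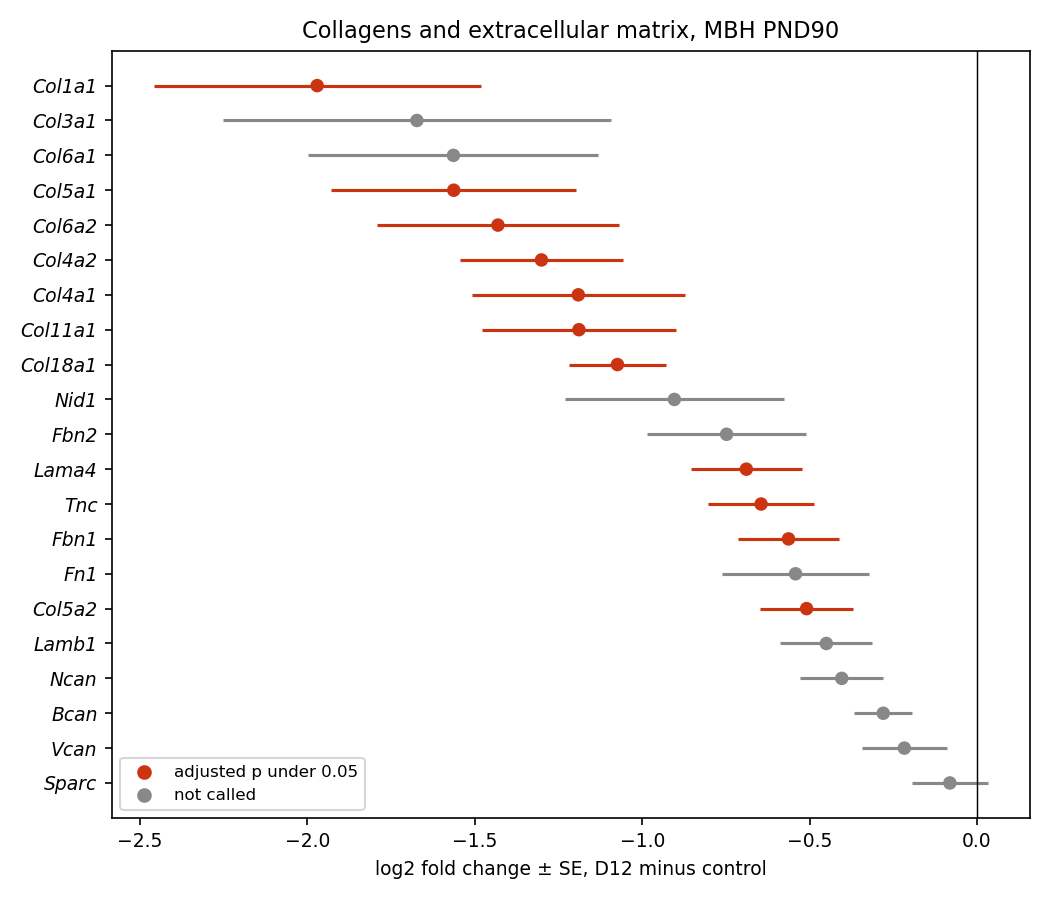
log2 fold change of D12 minus control with its SE (horizontal bars) for the 21 tested members of the list of collagens and extracellular matrix, in the order of their estimates. The 11 called members are in red, and all 21 estimates are below 0.

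Meningeal fibroblasts make such collagens, and 3 of their listed markers, Col1a1, Col1a2 and Col3a1, also stand in the matrix list. Their summed level was 214, 289, 38.0, 135 and 45.6 CPM in D12 r1 to r5, and 328 to 500 CPM in control. Of 9 tested, 3 fell (Col1a1, Lum and Ogn), 33.3% beside 6.09% of all genes tested, and the median was -1.36. Among the 7 that the matrix list does not hold, 2 fell and the median was -1.30. Col3a1, a defining fibrillar collagen of these cells, was at 46.1, 46.3, 3.47, 9.48 and 3.88 CPM against 56.0 to 83.2 CPM and was not called (-1.67 ± 0.580, adjusted p = 0.0962). Of 8 mural cell markers, 1 fell (12.5%), Vtn, which encodes vitronectin (-0.82 ± 0.218, adjusted p = 0.0458). Of 9 endothelial markers 1 fell (11.1%), the cell junction gene Cdh5 (-0.49 ± 0.104, adjusted p = 0.0216). The summed level of hemoglobin and other blood transcripts was 719 and 764 CPM in r1 and r2, 112 to 180 CPM in r3, r4 and r5, and 393 to 1011 CPM in control. The part of meninges and blood in the tissue pieces was not tested, and in such bulk samples fewer cells of a type and less RNA per cell cannot be told apart.

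Some markers of the oligodendrocyte lineage set r3, r4 and r5 apart from the other libraries, among them Gpr17 and Sirt2, and others, among them Sox10, did not. Of 8 tested markers of precursors, 2 fell (25% called, beside 6.09% of all genes tested). Cspg4, a surface proteoglycan, was at 35.7, 39.4, 27.8, 29.3 and 29.8 CPM against 39.7 to 50.9 CPM (-0.51 ± 0.108, adjusted p = 0.0216). Sox10, the transcription factor of the lineage, was at 64.1, 70.2, 67.9, 60.3 and 61.9 CPM against 72.9 to 102 CPM (-0.39 ± 0.089, adjusted p = 0.0298). Of 11 tested markers of newly formed oligodendrocytes, none was called and the median was -0.59. Gpr17 itself did not pass the test (-1.15 ± 0.422, adjusted p = 0.113). It had a log2 fold change of -0.25 with r3, r4 and r5 left out and of -2.41 with r1 and r2 left out. Sirt2, a deacetylase of oligodendrocytes, was at 504, 545, 250, 263 and 260 CPM against 531 to 647 CPM (-0.66 ± 0.213, adjusted p = 0.0792).

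Of 18 tested markers of myelin, 2 rose and none fell (11.1% called, beside 6.09% of all genes tested). Of the 18 estimates 12 were negative, with a median of -0.11. The summed level of the list was 24150 and 23150 CPM in r1 and r2. It was 16730 to 18850 CPM in r3, r4 and r5, and 19480 to 29430 CPM in control. Anln, a myelin-associated septin partner, was at 16.8, 16.2, 34.6, 36.9 and 31.7 CPM in D12 and at 15.1, 11.8, 12.4, 12.6 and 13.1 CPM in control (1.07 ± 0.225, adjusted p = 0.0204). Ermn, a cytoskeletal protein of myelinating cells, was at 102, 90.1, 140, 131 and 127 CPM against 61.2 to 95.4 CPM (0.64 ± 0.136, adjusted p = 0.0211). Mbp, which encodes the myelin basic protein, did not pass, at 7165, 7435, 6517, 8637 and 6865 CPM against 6462 to 10574 CPM (-0.12 ± 0.131, adjusted p = 0.593). For Mbp, all D12 libraries lay within the control range.

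S100b, a calcium-binding protein of astrocytes, was the only one of 11 astrocyte markers that was called, at 1280, 1501, 2222, 3128 and 2781 CPM in D12 against 1186 to 1416 CPM (0.80 ± 0.207, adjusted p = 0.0416). Ctss, a lysosomal protease of microglia, was the only one of 12 microglial markers, at 157, 200, 213, 275 and 255 CPM against 142 to 160 CPM (0.55 ± 0.126, adjusted p = 0.0297). The shares called were 9.09% of astrocyte and 8.33% of microglial markers, beside 6.09% of all genes tested. In both genes r1 lay within the control range and the other D12 libraries above it, and both were lost in 8 of the 10 fits with a single library removed. Summed astrocyte markers, of which S100b was the most abundant, reached 8184 to 9975 CPM in r3, r4 and r5. The sums were 5975 to 6954 CPM in control and 6060 and 6541 CPM in r1 and r2.

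**Figure D5:**
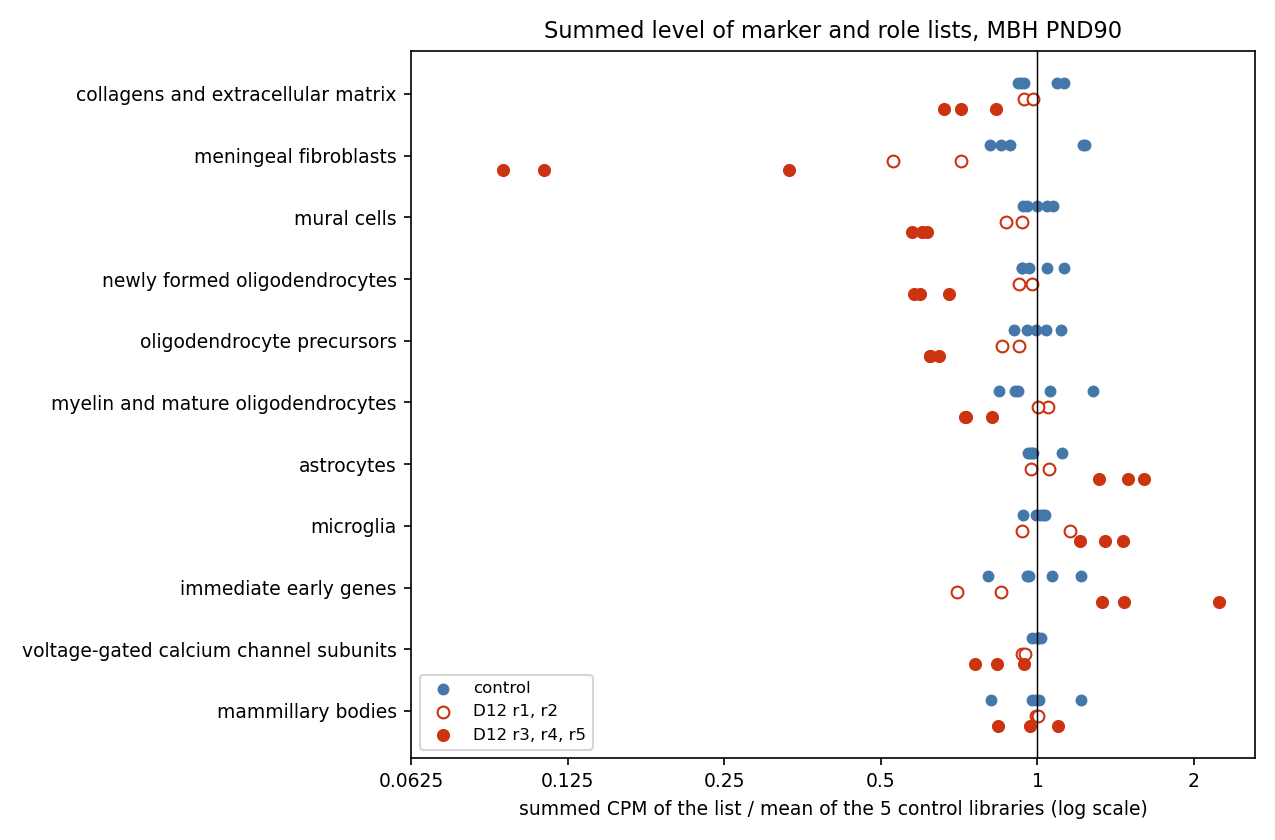
Summed CPM of 11 lists of marker and role genes in single libraries, divided by the mean of the 5 control libraries (log scale). D12 r3, r4 and r5 stand apart in the lists of meningeal fibroblasts, oligodendrocytes, astrocytes and immediate early genes, and all D12 libraries lie below control for the calcium channels.

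Of 21 tested subunits of voltage-gated calcium channels, 5 fell and none rose (23.8% called, beside 6.09% of all genes tested, median -0.10). Cacna1h, a pore subunit of T-type channels, was at 42.6, 46.3, 47.9, 42.3 and 44.9 CPM in D12 and at 60.0, 73.6, 63.2, 70.5 and 63.7 CPM in control (-0.55 ± 0.065, adjusted p = 0.00201). Its 5 D12 libraries were alike, with log2 fold changes of -0.56 without r3, r4 and r5 and of -0.54 without r1 and r2. Cacnb1, an auxiliary subunit, fell by 0.31 on the log2 scale (± 0.069, adjusted p = 0.0272), and Cacna1i, another T-type pore subunit, fell by 0.39 (± 0.096, adjusted p = 0.0355). Removing single libraries left Cacna1h called in all 10 fits, Cacnb1 in 4 and Cacna1i in 3. The summed level of the list was 1398 to 1748 CPM in D12 and 1804 to 1875 CPM in control, without overlap.

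The shares called among genes of fast transmitters lay near the 6.09% of all genes tested. Among 29 genes of glutamate transport and receptors, 1 was called (3.45%): Grik5, a kainate receptor subunit, was at 103, 119, 115, 99.2 and 105 CPM against 126 to 156 CPM (-0.37 ± 0.072, adjusted p = 0.0150) and kept its call whichever library was removed. Among 21 GABA genes, Gabra3, a receptor subunit, was the only one called (4.76%), at 66.6 to 79.4 CPM against 54.7 to 66.3 CPM (0.27 ± 0.067, adjusted p = 0.0353). Among 10 general neuronal markers, the vesicle fusion protein gene Snap25 was the only gene called (10%), and it rose (0.33 ± 0.081, adjusted p = 0.0345).

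None of 15 genes of the kisspeptin, neurokinin B and GnRH network was called (median 0.09). Kiss1 was at 0.638, 0.971, 1.70, 1.69 and 3.54 CPM in D12 and at 0.712 to 1.95 CPM in control (0.29 ± 0.419, adjusted p = 0.708). Tac3, which encodes neurokinin B, was at 12.8, 12.3, 17.3, 18.8 and 26.0 CPM against 12.5 to 21.5 CPM (0.07 ± 0.206, adjusted p = 0.855). Gnrh1 was at 0.501 to 2.04 CPM against 0.328 to 1.12 CPM, and Esr1, the estrogen receptor alpha, at 10.7 to 13.4 CPM against 8.83 to 12.7 CPM. For these low transcripts the highest D12 values of Kiss1, Tac3 and Gnrh1 were all in r5. A list of 64 regulators of GnRH that the study named from these samples had 3 genes that rose and 6 that fell among 62 tested. The share called was 14.5%, beside 6.09% of all genes tested, which is not independent evidence, nor are the directions. Among them Adcy6, an adenylyl cyclase, fell by 0.40 on the log2 scale (± 0.077, adjusted p = 0.0144).

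None of 18 tested genes of energy balance was called. Npw was closest to the threshold (-1.84 ± 0.526, adjusted p = 0.0558), with -0.88 when r3, r4 and r5 were left out and -3.79 when r1 and r2 were. Pomc, the precursor of the satiety peptide alpha-MSH, was at 13.5, 20.3, 62.8, 60.4 and 81.0 CPM against 26.3, 36.4, 46.6, 24.6 and 26.5 CPM, so that r1 and r2 lay below and r3, r4 and r5 above every control library (0.58 ± 0.404, adjusted p = 0.388). Agrp, its functional counterpart, was at 13.8, 10.1, 5.17, 7.40 and 7.36 CPM against 9.10 to 14.2 CPM (-0.38 ± 0.225, adjusted p = 0.298).

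None of 19 other hypothalamic neuropeptides was called either. The most abundant, Pmch of the lateral hypothalamus, was at 1210, 1082, 1492, 1464 and 1591 CPM against 888 to 1166 CPM (0.39 ± 0.111, adjusted p = 0.055), and Penk at 159 to 255 CPM against 144 to 220 CPM. Cga and Tshb, subunits of thyrotropin that the pars tuberalis of the pituitary makes next to the median eminence, differed widely. Cga was at 11.0, 14.3, 53.7, 43.6 and 69.6 CPM in D12 and at 4.73, 9.91, 0.0552, 4.02 and 21.3 CPM in control (2.27 ± 0.721, adjusted p = 0.0758), and Tshb at 0.592, 2.33, 23.2, 12.9 and 29.4 CPM against 0 to 4.27 CPM (3.12 ± 0.954, adjusted p = 0.0671). For both, r3, r4 and r5 were above every control library and r1 and r2 within the control range. The share of pituitary tissue in each piece was not tested. Lhb, a gonadotropin subunit, was the only 1 of 4 tested pituitary genes that was called (25%, beside 6.09% of all genes tested) and was lower (-0.61 ± 0.153, adjusted p = 0.0373).

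Regulators of transcription and chromatin were called in small numbers. Of 13 transcription factors of the arcuate and ventromedial nuclei, 2 fell (15.4% called, beside 6.09% of all genes tested). Nr5a1, the factor that specifies the ventromedial nucleus, was at 5.69, 5.54, 5.11, 5.32 and 6.95 CPM against 7.49, 12.9, 12.0, 8.45 and 7.12 CPM (-0.73 ± 0.178, adjusted p = 0.0351), and Hmx3 was at 0.638 to 1.23 CPM against 1.16 to 2.32 CPM (-0.99 ± 0.261, adjusted p = 0.0448). Of 19 polycomb and DNA methylation genes, 1 rose and 1 fell (10.5% called), and the median was -0.40. Ezh1, a histone H3 methyltransferase, rose, at 79.1, 75.3, 104, 99.1 and 106 CPM against 67.0 to 76.4 CPM (0.39 ± 0.100, adjusted p = 0.0404). With single libraries removed it was called in 2 fits only, and its log2 fold change was 0.13 without r3, r4 and r5. The summed level of the list was 1194 and 1274 CPM in r1 and r2, and 826 to 898 CPM in r3, r4 and r5. In control it was 1252 to 1418 CPM. The most abundant member of this list was Sirt2, the deacetylase of oligodendrocytes given above, which itself set r3, r4 and r5 apart. The sum therefore does not stand for the chromatin regulators alone.

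Of 15 clock genes, 13.3% were called, beside 6.09% of all genes tested. Per3 fell, at 45.7, 51.9, 43.9, 38.3 and 38.1 CPM against 54.3 to 65.4 CPM (-0.44 ± 0.086, adjusted p = 0.0152), and the repressor Nr1d2 rose, at 130 to 147 CPM against 102 to 124 CPM (0.29 ± 0.069, adjusted p = 0.0335). Of 12 tested immediate early genes, whose transcripts rise within minutes of stimulation or handling, none was called (median 0.48), and their sum was 143 and 118 CPM in r1 and r2, 224 to 376 CPM in r3, r4 and r5, and 135 to 204 CPM in control. Egr1 was at 33.7, 21.9, 53.1, 88.9 and 52.8 CPM against 29.0 to 48.1 CPM (0.48 ± 0.297, adjusted p = 0.323), and Jun at 37.6 to 59.6 CPM against 37.4 to 51.1 CPM.

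Of 17 genes of the insulin-like growth factor system, 11.8% were called, beside 6.09% of all genes tested. Igfbp5, a secreted binding protein, rose at 181, 185, 308, 342 and 292 CPM against 168 to 183 CPM (0.60 ± 0.162, adjusted p = 0.0473), and the kinase Akt2 fell (-0.32 ± 0.081, adjusted p = 0.0405). Of 22 cholesterol synthesis genes, Msmo1 (0.37 ± 0.081, adjusted p = 0.0234) and Sc5d (0.23 ± 0.061, adjusted p = 0.0419) rose and none fell. The share called was 9.09%, and 12 of the 22 estimates were negative, with a median of -0.043. Of 18 markers of immature neurons, 11.1% were called. Marcksl1, which regulates actin, fell to 5.92, 6.41, 5.99, 5.19 and 7.01 CPM from 12.5, 9.76, 15.6, 9.46 and 13.7 CPM (-0.99 ± 0.154, adjusted p = 0.00572), and Stmn1, a regulator of microtubules, rose to 435, 402, 537, 567 and 527 CPM from 353 to 396 CPM (0.42 ± 0.093, adjusted p = 0.0272). The 2 genes of this list thus moved in opposite directions. Of 16 cell division genes none was called, and their sum was 57.0 CPM in both r1 and r2, 35.0 to 36.4 CPM in r3, r4 and r5, and 54.0 to 57.0 CPM in control.

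The largest rises without overlap were smaller than the largest falls. Capg, an actin-capping protein of macrophages and other cells, was at 7.79, 5.54, 13.8, 8.05 and 7.97 CPM in D12 and at 2.10, 4.78, 2.04, 4.61 and 4.27 CPM in control (1.29 ± 0.285, adjusted p = 0.0254). Isg15, a ubiquitin-like protein induced by interferon, was at 2.00, 3.45, 3.72, 3.18 and 4.43 CPM against 1.18 to 1.88 CPM (1.09 ± 0.228, adjusted p = 0.0208). S100a13, a small calcium-binding protein, was at 36.6, 34.5, 54.9, 69.1 and 56.0 CPM against 25.9 to 32.4 CPM (0.81 ± 0.172, adjusted p = 0.0211). Besides Anln, the 8 genes included the uncharacterized AABR07028352.1 (1.08 ± 0.215), LOC100365839 (0.89 ± 0.240) and AABR07015346.1 (0.87 ± 0.218), and the ribosomal gene Rps27a (0.90 ± 0.180), whose reads may be shared with near-identical copies. Transcripts of ribosomal proteins took 1.12, 1.09, 1.28, 1.65 and 1.51% of the counts in D12 r1 to r5 and 1.01 to 1.17% in control, and their part in the rise of Rps27a was not tested.

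The genes that varied most among the D12 libraries included some that follow the split and some that do not. Alox15, a lipoxygenase, was at 53.5, 58.2, 1.01, 1.23 and 0.749 CPM in D12 and at 27.7 to 85.5 CPM in control, and Pnlip, a lipase, at 48.5, 46.7, 4.98, 4.80 and 5.72 CPM against 40.6 to 52.1 CPM. Neither passed the test, with adjusted p-values of 0.483 and 0.275 in the edgeR fit. Fam111a was at 1.32, 28.5, 0.315, 70.4 and 0.272 CPM, Asb15 at 0.0456, 11.1, 20.6, 6.62 and 0 CPM, and Grifin at 5.83, 1.21, 25.3, 51.2 and 2.18 CPM in D12 r1 to r5. These 3 genes varied between control libraries too, from 0.827 to 28.6 CPM, 0.102 to 26.2 CPM and 1.88 to 17.7 CPM.

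The lower doses of DES gave no called genes against control in the MBH at PND90. In the edgeR fits 0 of 14751 genes were called for D3 and 0 of 14742 for D6, with 1171 (7.94%) and 1764 (12%) genes at an unadjusted p-value under 0.05 and 6 and 89 genes called by DESeq2. Against D3, 589 of 14737 genes (4.00%) were called in D12, 287 higher (1.95%) and 302 lower (2.05%), and against D6 none of 14728, with 2744 (18.6%) at an unadjusted p-value under 0.05 and 520 called by DESeq2. Dot1l had log2 fold changes of -0.89 ± 0.123 against D3 (adjusted p = 0.00768) and of -0.63 ± 0.115 against D6 (adjusted p = 0.146). Its change from control was -0.12 ± 0.088 in D3, -0.38 ± 0.078 in D6 and -1.01 ± 0.103 in D12. These comparisons share the control or the D12 libraries. Cacna1h changed by -0.62 ± 0.086 from D3 to D12 (adjusted p = 0.00768) and by -0.36 ± 0.096 from D6 (adjusted p = 0.153), and Col4a2 by -1.20 ± 0.266 (adjusted p = 0.0382) and -0.96 ± 0.251 (adjusted p = 0.153). Of the 21 matrix genes, 6 were lower in D12 than in D3 and none was higher. Of 9 thalamic markers, which stand for a neighbouring region, 7 were higher in D12 than in D3 and none was lower, with a median of 1.21. Their sum was 602 to 739 CPM in D12, 356 to 539 CPM in D3 and 461 to 677 CPM in control. Against control none of the 9 was called, but all 9 estimates were positive. Their median there was 0.52, beside 0.0038 over all genes tested. The part of tissue content in the calls against D3 or against control was not tested.

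At PND22, 5256 of 14870 genes (35.3%) were called in D12 against control in the MBH, and 38 of 14764 (0.257%) at PND42. The D12 libraries labelled PND22 had an older minus younger score of 0.33 to 0.97. This was above that of all their control libraries and overlapped that of control at PND42. At PND42 the score was 1.26 to 1.88 in D12 and 0.24 to 0.79 in control, without overlap. The age profile and the DES label cannot be told apart at these 2 labelled ages either. Of the 9 thalamic markers, 7 were higher in D12 at PND22, with sums of 473 to 1480 CPM against 386 to 492 CPM in control, and their part in those calls was not tested. The change of D12 from control differed between PND90 and PND22 in 726 of 15157 genes (4.79%) by the interaction test, 443 (2.92%) with a more positive value at PND90 and 283 (1.87%) with a more negative one. Col4a2 changed by -1.29 ± 0.181 at PND22 and by -1.30 at PND90, with a difference of -0.003 ± 0.326. For Dot1l the difference was -0.32 ± 0.218 (adjusted p = 0.396), and for Npw, at -4.73 ± 0.493 at PND22, it was 2.89 ± 0.868 (adjusted p = 0.0557).

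In the POA at PND90, none of 14570 genes was called between D12 and control by edgeR, with 768 (5.27%) at an unadjusted p-value under 0.05. Gpr17 was at 20.1 to 28.1 CPM in D12 and 24.2 to 29.4 CPM in control there, and Col4a2 at 27.8 to 56.3 CPM and 32.2 to 45.7 CPM. The change differed between MBH and POA in none of 15088 genes by the interaction test with the rat as a block, with 1756 (11.6%) at an unadjusted p-value under 0.05 and 213 called by DESeq2. For Dot1l the difference between the tissues was -0.78 ± 0.129 (adjusted p = 0.109), and for Cacna1h -0.20 ± 0.128 (adjusted p = 0.576).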

How the data were processed

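Polyadenylated RNA was sequenced as stranded, paired reads. The authors aligned the reads to Rnor_6.0 with STAR, counted them on genes of Ensembl with featureCounts and deposited raw counts per gene for each tissue, without normalization or pooling. Whether the counting used the strand is not given in the sources used here. Groups and replicate numbers come from the sample titles.

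The tests ran in edgeR 4.0.16 (R 4.3.3): TMM factors, filterByExpr with a minimum count of 10, the two-sided quasi-likelihood test on the 2 groups compared, and Benjamini-Hochberg adjustment over all genes tested, with calls at an adjusted p-value under 0.05. The study used DESeq2 (here 1.42.0), which was run as an alternative beside limma 3.58.1. CPM values are scaled by library totals only. Standard errors are the fold change divided by the root of F, and 3 counts were taken as the floor of a library. Such limits cover counting error only. Scripts were tested on simulated data. Within groups, every pair of libraries differed by more than sampling noise.

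The members and gene lists were chosen with earlier results of these data known. Named genes are Gpr17 and Npw; the 8 highest and 8 lowest called genes by fold change with a symbol, an edgeR mean log2 CPM not under 1 and no overlap of libraries; up to 3 called and 2 abundant members of a list; the 6 most variable genes among the D12 libraries with a mean log2 CPM not under 3 (Col3a1 among them); and the 3 smallest adjusted p-values. Kiss1, Tac3, Gnrh1, Esr1, Pomc, Agrp and the members of the interaction were chosen after their values were seen. Between D12 and control of the MBH at PND90, no gene was called in the lists that the text above gives as without a call. The same holds for the lists of monoamine synthesis, heat shock, tanycytes, choroid plexus, blood, mammillary bodies, preoptic area, thalamus and striatum. In the list of cortex and hippocampus only Nrgn was called there, and it fell. Some genes that the rule names are not reported here.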

Additional observations from a re-analysis of the deposited data

Results flagged for a closer look

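Of 150 sets of 5 libraries, 4 held a library far from the other 4. This share is below the about 1 in 20 that chance alone gives, so that the 4 are listed as a description. Npw was at 4.98 CPM in control r2, beside 2.25 to 2.99 CPM in the other control libraries. Eln was at 115 CPM in the same library, beside 40.5 to 53.3 CPM, and Col7a1 at 8.63 CPM in control r4, beside 3.53 to 4.98 CPM. Bcas1, a marker of newly formed oligodendrocytes, was at 386 CPM in D12 r4, beside 259 to 279 CPM in the other D12 libraries.

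The change of D12 from control differed between PND90 and PND22 in 726 genes of the MBH by the interaction test in edgeR. Among the genes named above it did so in 4. The difference, PND90 minus PND22, was -0.85 for Marcksl1 (-0.99 at PND90 and -0.13 at PND22, adjusted p = 0.0446), -0.52 for Stmn1 (0.42 and 0.95, adjusted p = 0.0412), -0.49 for Sox10 (-0.39 and 0.11, adjusted p = 0.0341) and -1.06 for Mbp (-0.12 and 0.95, adjusted p = 0.0231). Of 18 myelin markers, 7 had a more negative change at PND90 and none a more positive one. The MBH libraries labelled control at PND90 (-1.13 to -0.71) scored near control at PND22 (-1.01 to -0.78) on the age profile. These differences therefore concern labelled ages, and whether they hold between ages was not tested.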

How the results depend on the processing

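The 890 calls of D12 against control became 1840 with DESeq2, 1964 in 1 edgeR fit and 2500 in 1 DESeq2 fit of control and all DES doses, 2052 with limma voom and quality weights, and 419 with a replicate block, although the numbers in the titles do not pair the rats (correlations of deviations between -0.18 and 0.10). Leaving out 1 library gave 239 (control r2) to 1710 (D12 r2). Each library moved the count by over 1.5 times, upwards for D12 r1 (1630) and r2, downwards for control r1 (528), r3 (403), r4 (431) and r5 (273) and D12 r3 (355), r4 (341) and r5 (291). Chosen after seeing the data, leaving out D12 r1 and r2 gave 4034 and leaving out r3, r4 and r5 gave 291. The higher genes were 260 of 890, but 823 of 1840 with DESeq2 and 46 of 419 with the block.

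Against D3, 589 became 1793 with DESeq2 and 17 (without D3 r1) to 1723 (without D12 r1) with 1 library left out. The other counts lay at 24 (without D12 r3 or D3 r5), 35 (D12 r4), 54 (D12 r5), 223, 319 and 386 (D3 r4, r2 and r3) and 1518 (D12 r2). Against D6, 0 became 520 with DESeq2 and 0 to 231 (without D12 r2), with 95 without D6 r5 and 1 without D6 r1. For D3 against control, DESeq2 gave 6, the replicate block 1 and leave-one-out fits 0 to 1 (without D3 r3), and for D6 against control 89 with DESeq2 and 0 to 8 (without control r4; 2 without D6 r3). The interaction with age went from 726 to 1520 with DESeq2, 91 with the replicate block and 213 (without control r5) to 967 (without D12 r4), with 243 without control r1, 341 without control r2, 388 without D12 r1 and 422 without D12 r2. The interaction with tissue went from 0 to 213 with DESeq2, 39 without a filter and 0 to 245 (without D12 r2), and stayed at 0 with no replicate block. With 50 genes on each side, the age scores of D12 r1 to r5 were -1.49, -1.44, 1.22, 1.59 and 1.42.

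Among 74 named genes, signs turned only in genes that were not called. With D12 r3, r4 and r5 left out, the log2 fold change was 0.05 for Pnlip, -0.034 for Bcas1, -0.14 for Penk, -0.23 for Jun, -0.91 for Pomc, -0.39 for Tac3, -0.76 for Kiss1, 0.23 for Alox15, -0.35 for Gnrh1, -0.36 for Egr1, 0.057 for Agrp, -0.90 for Grifin and -0.091 for Tshb. Asb15 turned to 0.46 with the replicate block and 0.32 with quality weights, and Fam111a to -1.31 with quality weights. With 1 library left out, values ran from -1.03 to 0.552 for Asb15, -0.354 to 1.97 for Fam111a, -0.041 to 0.164 for Bcas1, -0.057 to 0.132 for Jun, -0.115 to 0.182 for Tac3, -0.158 to 0.516 for Kiss1, -0.047 to 0.558 for Gnrh1 and -0.201 to 0.003 for Mbp. The causes were not tested. At these depths, genes near 3 counts per library give no usable fold change.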
